A study of Mus musculus with 44 samples.

Results

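Transcript levels of 8 genes of cholesterol synthesis and its control were followed in mouse kidney: Hmgcs1, Idi1, Fdps, Sqle, Lss, Cyp51, Dhcr7 and Insig1. They were chosen by name as sterol synthesis genes and targets of the transcription factor SREBP2, and their values were the sums of their transcripts. These 8 genes were 8 of the 24733 genes with any value above 0. All 8 averaged more than 1 TPM, a transcript's share of a library's RNA corrected for transcript length, and so passed the filter on low values that left 12874 genes for the tests. Cholesterol is built from acetyl-CoA through mevalonate, isoprenoid diphosphates, squalene and lanosterol. When sterol is scarce, the SCAP protein carries SREBP2 from the endoplasmic reticulum to the Golgi, where it is cut, and the released part enters the nucleus and activates the genes of this pathway. When sterol is plentiful, INSIG proteins hold SCAP and SREBP2 back. Kidney cells, like most cells, both make cholesterol for their membranes and take it up from lipoproteins.

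Polyadenylated RNA came from kidneys of 129SV mice aged 8 to 12 weeks, all on night-restricted feeding. The WT group carried functional Arntl (Bmal1, a core activator of the circadian clock) and the KO group was the Bmal -/- knockout. Each genotype was sampled at zeitgeber times (ZT) 0, 4, 8, 12, 16 and 20 h, with 2 libraries, A and B, per genotype and time, or 24 libraries. The labels name no promoter, Cre or tissue restriction for the knockout, do not say whether the mice were littermates, and do not say that A and B were separate animals, so p-values measure only the spread between these libraries, which may be technical. The series compared genotypes and times of day in order to separate clock-driven from other daily rhythms of expression. TPM keeps no depth, so the depth behind each value is unknown. Arntl itself read 0.295 to 12.9 TPM in WT and 4.19 to 6.28 TPM in KO, and a sum over its transcripts does not test the deletion. The library labelled KO ZT4 A read 23.8 TPM for Nr1d1 and 1.03 TPM for Cry1, clock genes that lay at 1.23 to 3.46 TPM and 11.5 to 17.8 TPM in the other 11 KO libraries. Both values lay near those of WT at ZT4 (Nr1d1 22.0 and 33.0 TPM, Cry1 1.20 and 0.845 TPM), so its genotype label is in doubt. The member counts, level differences and peak shifts are also given without it, and among the calls of the 8 members and the 30 other listed genes its removal ended 2, the KO rhythms of Insig1 and Abcg1, and made none. Markers of proximal tubule (4 genes, summed 1736 to 2389 TPM), thick ascending limb (2 genes, 1140 to 1737 TPM) and collecting duct (2 genes, 125 to 426 TPM) were high in every library. Adrenal cortex markers, which matter because the adrenal gland lies on the kidney and is rich in sterol synthesis, summed to 0.775 to 1.63 TPM over 6 genes, and Cyp11b2 was at 0 in every KO library and at most 0.0129 TPM in WT. Of the marker lists the 4 adipocyte genes had the widest relative range, from 0.0784 to 10.5 TPM in sum. In WT they summed to 0.121 to 0.422 TPM in the 4 libraries of ZT0 and ZT20 and to 0.758 to 9.75 TPM at the other times, while in KO the libraries of ZT0 read 6.63 and 9.84 TPM. Their part in the members' rhythms was not tested.

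Promoter sequence was available for 6 of the 8 genes from RefSeq (GRCm38.p6), as windows of 250 bases before to 50 after the start site. Sqle and Fdps were not in that table. The windows were searched on both strands for a sterol regulatory element (TCACNCCAC), the NF-Y box that often lies next to it (CCAAT), the GC box bound by Sp1 (GGGCGG) and the E-box bound by the CLOCK and BMAL1 pair (CACGTG). Stretches upstream of the transcripts of 3 genes are shown because they carry the letters of SREBP2 with NF-Y, of NF-Y alone, and of NF-Y with the clock E-box. Capitals mark the sterol regulatory element, the NF-Y box (ATTGG where it lies on the other strand) and the E-box.
Hmgcs1 (chr13:119690104-119690320, plus strand): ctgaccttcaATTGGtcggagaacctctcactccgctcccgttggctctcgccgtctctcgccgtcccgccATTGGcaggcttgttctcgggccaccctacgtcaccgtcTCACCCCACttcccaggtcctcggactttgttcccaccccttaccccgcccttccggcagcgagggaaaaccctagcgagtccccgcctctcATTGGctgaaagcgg
Lss (chr10:76531533-76531557, plus strand): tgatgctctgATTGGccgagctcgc
Insig1 (chr5:28071186-28071326, plus strand): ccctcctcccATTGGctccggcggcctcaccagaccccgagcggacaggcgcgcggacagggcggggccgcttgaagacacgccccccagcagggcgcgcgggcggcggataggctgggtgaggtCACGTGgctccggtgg
The sterol regulatory element was found without mismatch in 1 of 6 windows, that of Hmgcs1, at position -137 from its start site, against 1.242% of 32851 windows of all genes. With up to 1 mismatch it was found in 3 of 6 (Hmgcs1, Cyp51 and Insig1), against 24.22% of all windows. NF-Y boxes were present in 6 of 6 against 37.41%, and GC boxes in 6 of 6 against 35.66%. The E-box was found in 1 of 6, that of Insig1, at position -101, against 7.15% of all windows. These are matches of letters only, and a missing match says nothing of a factor.

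On the TPM scale, which is per transcript length, Hmgcs1 was the most abundant member and Dhcr7 the least. Over the 12 WT libraries the mean was 163 TPM for Hmgcs1, 63.6 for Cyp51, 59.8 for Idi1, 22.1 for Sqle, 20.4 for Insig1, 20.3 for Fdps, 14.1 for Lss and 12.4 for Dhcr7. The WT ranges of neighbours in this order overlapped, except that every WT library of Hmgcs1 lay above every one of Cyp51 and every one of Idi1 above every one of Sqle. Hmgcs1, Fdps and Insig1 were each listed as 1 transcript. Lss differed in composition, with 19.5% ± 2.4 (SD, n = 12) of its WT sum in transcripts annotated as protein coding, the rest being retained-intron and processed transcripts. Protein-coding transcripts held 72.3% ± 2.0 (SD, n = 12) of the WT sum of Cyp51 and 79.6% ± 7.3 (SD, n = 12) of that of Dhcr7. Rhythm was tested with limma on log2(TPM + 0.1) as a 24-hour cosine in each genotype, and the level difference with time as a factor. A call means a p-value under 0.05 after Benjamini-Hochberg adjustment over all genes tested, and each fold value is on the log2(TPM + 0.1) scale.

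**Figure D1:**
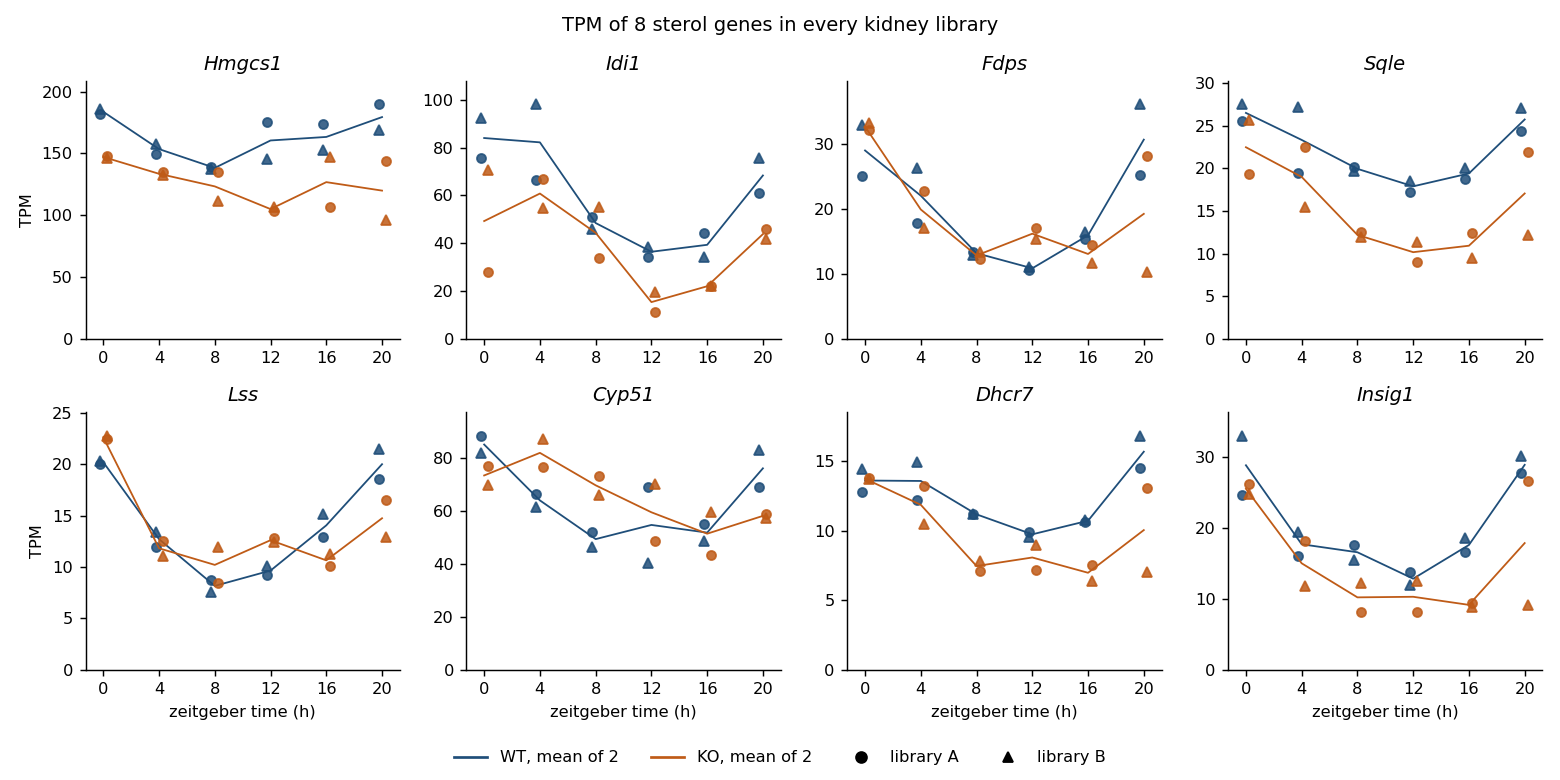
TPM (vertical axis, from 0) of each of the 8 genes against zeitgeber time (h) in WT (blue) and KO (orange); circles and triangles are libraries A and B and lines join the means of 2. The WT means are highest at ZT0 or ZT20 and lowest at ZT8 or ZT12 for all 8 genes, and the KO points of Hmgcs1, from 95.6 to 148 TPM, lie below the WT points of the same time at all 6 times.

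The early, mevalonate arm of the pathway is represented by Hmgcs1, Idi1 and Fdps. Hmgcs1 (chr13:119690379-119708260, plus strand, GRCm38, GENCODE M21) encodes the cytosolic synthase that makes HMG-CoA. In WT its libraries A and B read 181 and 186 TPM at ZT0, 149 and 158 at ZT4, 139 and 137 at ZT8, 175 and 145 at ZT12, 173 and 153 at ZT16 and 189.5 and 169 at ZT20. In KO they read 148 and 146 TPM at ZT0, 135 and 132 at ZT4, 135 and 111 at ZT8, 103 and 107 at ZT12, 107 and 147 at ZT16 and 144 and 95.6 at ZT20. The gene was lower in KO: both KO libraries lay below both WT libraries at 6 of 6 times, and 12 of 12 KO libraries lay below the WT median. The log2 difference, KO minus WT, was -0.38 ± 0.07 (SE; 95% interval -0.53 to -0.23; adjusted p = 0.000158). Its daily swing was the smallest of the 8, with a fitted peak-to-trough of 0.35 ± 0.13 log2 units (SE) in WT and 0.35 ± 0.13 in KO, and neither passed the rhythm test (adjusted p = 0.170 and 0.243). Differences in bulk kidney cannot tell fewer cells that express a gene from less RNA per cell, here and below.

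Idi1 (chr13:8885501-8892451, plus strand) encodes the isomerase that interconverts isopentenyl and dimethylallyl diphosphate. Its WT libraries read 75.7 and 92.2 TPM at ZT0, 66.3 and 98.0 at ZT4, 50.7 and 46.1 at ZT8, 34.3 and 38.4 at ZT12, 44.4 and 34.1 at ZT16 and 60.9 and 75.7 at ZT20. The KO libraries read 28.0 and 70.4 TPM at ZT0, 67.0 and 54.5 at ZT4, 33.7 and 54.9 at ZT8, 11.0 and 19.6 at ZT12, 22.0 and 21.8 at ZT16 and 45.7 and 41.8 at ZT20. The highest mean fell at ZT0 in WT (84.0 TPM) and at ZT4 in KO (60.7 TPM), the lowest at ZT12 in both (without the library labelled KO ZT4 A, ZT4 in KO rests on 54.5 TPM alone), and the pair of libraries at KO ZT0 stood far apart. Idi1 had the widest KO rhythm of the 8, 1.76 ± 0.33 log2 units (SE) with a fitted peak at ZT1.87 ± 0.706 h (adjusted p = 0.0134). In WT the fitted swing was 1.35 ± 0.33 with a peak at ZT0.920 ± 0.920 h (adjusted p = 0.0232). It also had the largest level difference among the 8, -0.71 ± 0.15 (SE; 95% interval -1.03 to -0.39; adjusted p = 0.000678), with both KO libraries below both WT libraries at 4 of 6 times. The WT call was lost without WT ZT0 B (adjusted p = 0.0621) or WT ZT12 A (adjusted p = 0.0592).

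Fdps (chr3:89093588-89101959, minus strand) encodes the synthase that makes geranyl and farnesyl diphosphate, the last steps shared by sterols and other isoprenoids. In WT it read 25.1 and 32.9 TPM at ZT0, 17.8 and 26.3 at ZT4, 13.4 and 12.9 at ZT8, 10.7 and 11.0 at ZT12, 15.4 and 16.5 at ZT16 and 25.2 and 36.1 at ZT20. In KO it read 32.1 and 33.2 TPM at ZT0, 22.8 and 17.0 at ZT4, 12.3 and 13.4 at ZT8, 17.0 and 15.4 at ZT12, 14.5 and 11.6 at ZT16 and 28.2 and 10.3 at ZT20. The WT means ran from 10.8 TPM at ZT12 to 30.7 TPM at ZT20, a ratio of 2.83, the widest among the members in WT. The WT rhythm passed the test (peak-to-trough 1.54 with SE 0.29, peak at ZT22.9 with SE 0.730 h, adjusted p = 0.00458). The KO rhythm did not (peak-to-trough 1.02 with SE 0.29, peak at ZT0.416 with SE 1.10 h, adjusted p = 0.106), but it passed without the low library KO ZT20 B (peak-to-trough 1.25, adjusted p = 0.0106). No level difference was detected, the log2 value being -0.09 ± 0.15 (SE; 95% interval -0.41 to 0.23; adjusted p = 0.635) and, without KO ZT20 B, 0.04.

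Sqle, Lss, Cyp51 and Dhcr7 act after squalene. Sqle (chr15:59315077-59331192, plus strand) encodes squalene epoxidase, a rate-limiting enzyme of this later stage. WT libraries read 25.5 and 27.5 TPM at ZT0, 19.5 and 27.2 at ZT4, 20.2 and 19.7 at ZT8, 17.3 and 18.5 at ZT12, 18.8 and 20.05 at ZT16 and 24.4 and 27.2 at ZT20. KO libraries read 19.3 and 25.7 TPM at ZT0, 22.5 and 15.5 at ZT4, 12.5 and 11.9 at ZT8, 8.98 and 11.3 at ZT12, 12.4 and 9.46 at ZT16 and 21.9 and 12.2 at ZT20. At ZT8, ZT12, ZT16 and ZT20 both KO libraries lay below both WT libraries, while the genotypes overlapped at ZT0 and ZT4, and 8 of 12 KO libraries lay below the lowest WT library. The level difference was -0.59 ± 0.10 (SE; 95% interval -0.80 to -0.38; adjusted p = 6.49e-05). The KO rhythm passed (peak-to-trough 1.18 with SE 0.17, peak at ZT0.677 with SE 0.557 h, adjusted p = 0.00230). The WT rhythm missed the threshold (peak-to-trough 0.58 with SE 0.17, peak at ZT23.6 with SE 1.12 h, adjusted p = 0.0621) and passed without KO ZT20 B (adjusted p = 0.0326), KO ZT20 A (adjusted p = 0.0398) or WT ZT4 A (adjusted p = 0.0432). The KO swing exceeded the WT swing by 0.59 (95% interval 0.09 to 1.10) log2 units, but the joint test of the difference in rhythm gave an adjusted p of 0.365 (unadjusted p = 0.0496).

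Lss (chr10:76531588-76557138, plus strand) encodes lanosterol synthase, which folds oxidosqualene into the first sterol of the pathway. WT libraries read 20.1 and 20.3 TPM at ZT0, 12.0 and 13.4 at ZT4, 8.74 and 7.59 at ZT8, 9.22 and 10.1 at ZT12, 12.9 and 15.2 at ZT16 and 18.5 and 21.5 at ZT20. KO libraries read 22.5 and 22.8 TPM at ZT0, 12.5 and 11.1 at ZT4, 8.42 and 12.0 at ZT8, 12.8 and 12.4 at ZT12, 10.1 and 11.2 at ZT16 and 16.5 and 12.9 at ZT20. The gene swung from a low at ZT8 to a high at ZT0 in both genotypes, by a ratio of 2.47 between the WT means and 2.22 between the KO means. It had the smallest WT rhythm p of the 8 (peak-to-trough 1.36 with SE 0.19, peak at ZT21.5 with SE 0.541 h, adjusted p = 0.000329). The KO rhythm passed narrowly (peak-to-trough 0.82 with SE 0.19, peak at ZT22.9 with SE 0.900 h, adjusted p = 0.0459) and lost the call without any 1 of 18 of the 24 libraries (adjusted p up to 0.138) and with protein-coding transcripts only (adjusted p = 0.0638). Its level difference did not pass, with a log2 value of -0.02 ± 0.09 (SE; 95% interval -0.20 to 0.17; adjusted p = 0.889) and, without KO ZT20 B, of 0.03.

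Cyp51 (chr5:4081145-4104746, minus strand) encodes the demethylase that acts on lanosterol. WT libraries read 88.6 and 81.8 TPM at ZT0, 66.6 and 61.6 at ZT4, 52.2 and 46.6 at ZT8, 69.3 and 40.3 at ZT12, 55.2 and 48.6 at ZT16 and 69.3 and 83.1 at ZT20. KO libraries read 77.1 and 69.9 TPM at ZT0, 76.8 and 87.3 at ZT4, 73.3 and 66.3 at ZT8, 48.9 and 70.3 at ZT12, 43.4 and 59.5 at ZT16 and 58.9 and 57.6 at ZT20. KO was lower than WT at ZT0 and ZT20 and higher at ZT4 and ZT8, with no overlap of the pairs at those 4 times. At ZT4 the KO library other than KO ZT4 A was the higher of its pair. The fitted peak moved from ZT23.1 ± 0.781 h in WT to ZT3.78 ± 0.941 h in KO, a shift of 4.67 h (95% interval 2.12 to 7.21 h), the largest among the members. The joint test of the difference in rhythm gave an adjusted p of 0.167 (unadjusted p = 0.00556), which among the fits leaving out 1 library passed without WT ZT12 A (adjusted p = 0.0254), a library at 69.3 TPM beside 40.3 TPM in its partner. The WT rhythm passed (peak-to-trough 0.79 ± 0.16, SE, adjusted p = 0.00720) and the KO rhythm missed the threshold (0.65 ± 0.16, adjusted p = 0.0545). Without WT ZT12 A, KO ZT12 B or KO ZT16 B the KO rhythm passed (adjusted p = 0.0133, 0.0362 and 0.0458). The mean level did not pass, with a log2 value of 0.06 ± 0.10 (SE; 95% interval -0.15 to 0.28; adjusted p = 0.612), and its sign turned under median-of-ratios scaling (-0.09) and on a scale without mitochondrial genes (-0.000899).

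Dhcr7 (chr7:143823145-143848410, plus strand) encodes the reductase that makes cholesterol from dehydrocholesterol. WT libraries read 12.8 and 14.4 TPM at ZT0, 12.2 and 14.9 at ZT4, 11.2 and 11.2 at ZT8, 9.90 and 9.56 at ZT12, 10.6 and 10.8 at ZT16 and 14.5 and 16.8 at ZT20. KO libraries read 13.8 and 13.7 TPM at ZT0, 13.2 and 10.5 at ZT4, 7.09 and 7.81 at ZT8, 7.19 and 8.93 at ZT12, 7.55 and 6.38 at ZT16 and 13.1 and 6.99 at ZT20. From ZT8 to ZT20 both KO libraries lay below both WT libraries, while at ZT0 and ZT4 the genotypes overlapped. The level difference was -0.39 ± 0.09 (SE; 95% interval -0.59 to -0.19; adjusted p = 0.00148). The KO rhythm passed (peak-to-trough 0.91 with SE 0.18, peak at ZT0.968 with SE 0.757 h, adjusted p = 0.0187), though not without KO ZT0 B (adjusted p = 0.0570). The WT rhythm did not (peak-to-trough 0.59 with SE 0.18, peak at ZT23.4 with SE 1.16 h, adjusted p = 0.0725), but passed without KO ZT20 B (adjusted p = 0.0284).

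Insig1 (chr5:28071363-28078662, plus strand) is the feedback member: its protein retains SCAP and SREBP2 in the endoplasmic reticulum, and the gene is itself switched on by SREBP2. WT libraries read 24.6 and 32.9 TPM at ZT0, 15.9 and 19.4 at ZT4, 17.6 and 15.5 at ZT8, 13.7 and 11.9 at ZT12, 16.5 and 18.6 at ZT16 and 27.6 and 30.0 at ZT20. KO libraries read 26.1 and 24.8 TPM at ZT0, 18.2 and 11.8 at ZT4, 8.19 and 12.2 at ZT8, 8.11 and 12.4 at ZT12, 9.42 and 8.84 at ZT16 and 26.6 and 9.09 at ZT20. Both genotypes were high at ZT0, and at ZT8, ZT16 and ZT20 the KO pair lay below the WT pair. The level difference was -0.55 ± 0.15 (SE; 95% interval -0.86 to -0.24; adjusted p = 0.00361). The rhythm passed in WT (peak-to-trough 1.13 with SE 0.30, peak at ZT22.4 with SE 1.0 h, adjusted p = 0.0362) and in KO (peak-to-trough 1.33 with SE 0.30, peak at ZT0.0716 with SE 0.854 h, adjusted p = 0.0359). Leaving out 1 library at a time ended the WT call for 7 of 24 libraries (adjusted p up to 0.103) and the KO call for 8 of 24 (adjusted p up to 0.105), among them the library labelled KO ZT4 A (adjusted p = 0.0509).

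As a group, the 8 genes had fitted peaks between ZT20.7 and ZT0.920 in WT and between ZT22.9 and ZT3.78 in KO, from late night to early light. In WT 5 of 8 passed the rhythm test (Idi1, Fdps, Lss, Cyp51 and Insig1), against 13.7% of all genes tested, and all 8 had an unadjusted p under 0.05. In KO 5 of 8 passed (Idi1, Sqle, Lss, Dhcr7 and Insig1), against 3.64% of all genes tested, and 7 had an unadjusted p under 0.05. The median fitted peak-to-trough of the 8 was 0.96 log2 units in WT and 0.96 in KO, where the medians of all genes tested were 0.25 and 0.21. For the difference in rhythm, limma called 0 of 8 members, against 0.629% of all genes tested, and 2 (Cyp51 and Sqle) had an unadjusted p under 0.05. The intervals of the amplitude differences were wide: that of Fdps was -0.52 (95% interval -1.39 to 0.34), that of Idi1 0.41 (95% interval -0.55 to 1.37) and that of Lss -0.54 (95% interval -1.11 to 0.02) log2 units. Without the library labelled KO ZT4 A the counts were 5 in WT, 4 in KO and 0 for the difference, and without KO ZT20 B they were 7, 6 and 0. The WT count was 3 without WT ZT0 B or WT ZT12 A, the KO count was 3 without KO ZT0 A, KO ZT8 A or KO ZT8 B and 2 without KO ZT0 B, and the difference count was 1 without WT ZT12 A. The counts over all genes moved as well. Leaving out 1 library at a time gave 1193 to 2140 of all genes in WT and 272 to 620 in KO. With each genotype fitted alone 8 members passed in WT and 0 in KO, beside 2843 and 12 of all genes. When the 6 times were treated as unordered classes 1 member passed in WT and 1 in KO, and fewer of all genes passed too.

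The fitted peak was later in KO than in WT for 8 of 8 members, by a median of 1.52 h, and the count stayed at 8 in all 35 alternatives run. Among all genes tested 48.5% had a later fitted peak in KO, and among the 214 genes rhythmic in both genotypes 55.1% did. Later fitted peaks were also found for 7 of 7 genes that encode or act on the SREBPs and 8 of 11 other synthesis enzymes. They were also found for 4 of 5 uptake genes and 5 of 7 genes of the sterol sensor LXR and cholesterol efflux. Most of these genes were not rhythmic in both genotypes, so the direction of their fitted shifts is uncertain. Of the 7 SREBP genes only Srebf1 was, with a shift of 1.73 h (95% interval 0.04 to 3.43 h). That of Srebf2 was 0.03 h (95% interval -4.27 to 4.33 h) and that of Mbtps1 10.8 h (95% interval -1.49 to 23.1 h). Of the 3 other synthesis enzymes rhythmic in both genotypes, Mvd shifted by 3.15 h (95% interval 1.52 to 4.78 h), Acat2 by 3.45 h (95% interval 1.11 to 5.79 h) and Nsdhl by 1.05 h (95% interval -1.35 to 3.45 h). In the joint test of the difference in rhythm limma called 0 of these 11 enzymes and 0 of the 7 SREBP genes. Of all genes tested it called 0.629%, so a count of 0 in lists this small says little. The adjusted p was 0.116 for Mvd, 0.128 for Acat2 and 0.472 for Srebf1. Among the 8 members only the shifts of Cyp51 and of Hmgcs1 had an interval that excluded 0, and that of Hmgcs1, 4.29 h (95% interval 0.0104 to 8.57 h), belongs to a gene whose rhythm passed in neither genotype. For the 3 members rhythmic in both, the shift was 0.949 h (95% interval -1.47 to 3.37 h) for Idi1, 1.42 h (95% interval -0.767 to 3.60 h) for Lss and 1.67 h (95% interval -1.07 to 4.41 h) for Insig1. The 8 genes were measured in the same libraries, so 8 shifts in one direction are not 8 separate observations. Without KO ZT20 B the shift was 2.64 h for Hmgcs1, 0.281 h for Fdps, 0.567 h for Sqle, 0.657 h for Dhcr7 and 0.840 h for Insig1, while that of Cyp51 was 4.62 h. Without the library labelled KO ZT4 A it was 4.32 h for Hmgcs1, 0.833 h for Idi1, 1.41 h for Fdps, 0.823 h for Sqle, 1.76 h for Lss, 4.68 h for Cyp51, 1.27 h for Dhcr7 and 1.54 h for Insig1.

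**Figure D2:**
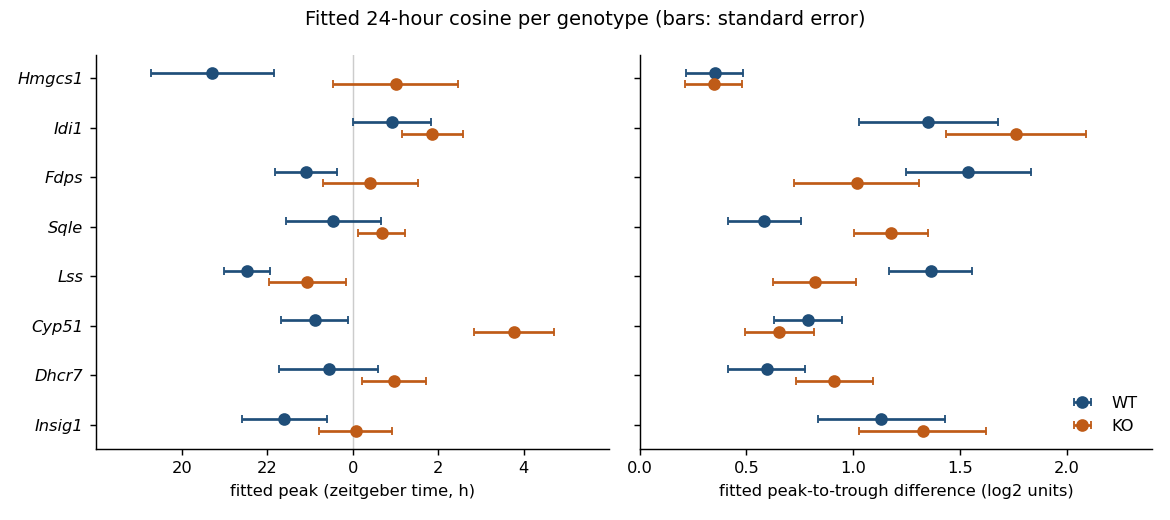
Fitted peak time (left, zeitgeber time in h) and fitted peak-to-trough difference (right, log2 units) of a 24-hour cosine for each gene in WT (blue) and KO (orange); bars are standard errors. KO peaks lie to the right of WT peaks for all 8 genes, farthest for Cyp51 (ZT23.1 to ZT3.78), while the amplitudes lie on either side of each other.

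Across the day 5 of the 8 members were lower in KO (Hmgcs1, Idi1, Sqle, Dhcr7 and Insig1) and 0 were higher. Of all genes tested 10.0% were lower and 50.9% were higher in KO. The median log2 difference was -0.39 for the members and 0.15 for all genes. The share of mitochondrial transcripts moved with genotype, from 38.0% to 42.5% of TPM in WT and from 32.3% to 40.3% in KO, and on a scale without those genes 5 members were lower, with 4770 of all genes higher and 1785 lower. Rescaling by median of ratios moved the median of all genes to 0.0016 and turned the counts over all genes from 6555 higher and 1289 lower to 2840 higher and 2859 lower, with the same count of 5 members lower. On that scale the differences were -0.53 for Hmgcs1, -0.86 for Idi1, -0.74 for Sqle, -0.54 for Dhcr7 and -0.70 for Insig1. The 5 genes passed in each of 36 alternatives, the lowest of the differences without 1 library being -0.78 for Idi1 and the smallest in size -0.32 for Dhcr7. Without the library labelled KO ZT4 A they were -0.39, -0.74, -0.64, -0.42 and -0.60 in the order Hmgcs1, Idi1, Sqle, Dhcr7 and Insig1. Marker sums of other cells also differed in median between WT and KO: the 2 collecting duct markers stood at 189.8 and 253 TPM (ranges 125 to 241 and 167 to 426) and the 4 liver-type genes at 92.6 and 147 TPM (ranges 61.7 to 111 and 93.4 to 202). Within the liver-type genes Apoa2 (1.81) and Ttr (0.92) were higher in KO on the log2 scale, Alb, the defining one, was lower (-2.10, means 2.51 and 0.601 TPM), and Serpina1a did not pass (-0.16). The part of these markers in the result was not tested.

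**Figure D3:**
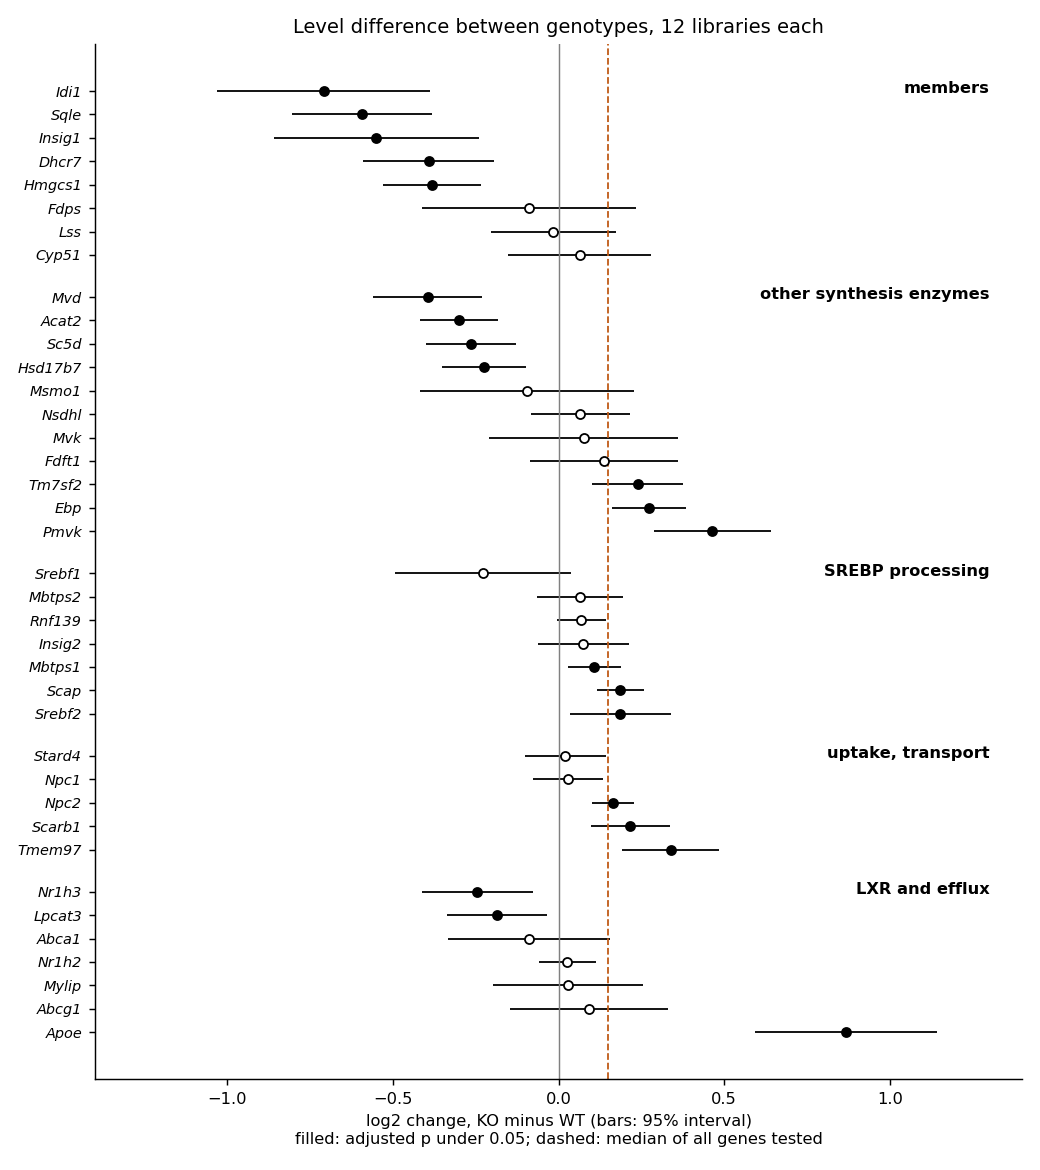
Log2 difference, KO minus WT, with its 95% interval (horizontal axis) for the 8 members and 30 other sterol genes in 4 groups, 12 libraries per genotype; filled points passed the adjusted p threshold and the dashed line is the median of all genes tested (0.15). Idi1, Sqle, Insig1, Dhcr7 and Hmgcs1 lie left of 0 with their whole intervals, and Fdps, Lss and Cyp51 span it.

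The levels of the members went together across libraries as well as across times. Over the 24 libraries the Pearson correlation of log2(TPM + 0.1) was positive in 28 of 28 pairs of members, from 0.32 to 0.94 with a median of 0.64. The closest pair was Sqle with Dhcr7 (0.94), and Cyp51 was the least like the others (median 0.43). These points share their libraries, time of day and genotype, so the values are descriptions. Between libraries A and B of the same group, where time and genotype are fixed, 25 of 28 pairs were still positive over the 12 groups, with a median of 0.46. The group KO ZT20 can weigh heavily on these values, with 8 of 8 members higher in A by a median of 0.71 log2 units. In the other groups the median over members lay between -0.32 and 0.31. The correlations without KO ZT20, and those of other gene pairs, were not computed.

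The widest single differences between the libraries of a group were found at KO ZT20 and KO ZT0. At KO ZT20 library A exceeded library B for 8 of 8 members, by a median of 0.71 log2 units, and for 11 of 11 other synthesis enzymes, by a median of 0.52. Over all genes tested the median difference between these libraries was -0.01. Insig1 read 26.6 TPM in A and 9.09 TPM in B, a difference of 1.54, and Fdps 28.2 and 10.3 TPM, a difference of 1.45. Cyp51 read 58.9 and 57.6 TPM. At KO ZT0 1 member stood apart: Idi1 read 28.0 TPM in A and 70.4 TPM in B, a difference of -1.33, while the other 7 members lay between -0.41 (Sqle) and 0.14 (Cyp51). In WT the widest single difference was that of Cyp51 at ZT12, 0.78. The adipocyte markers summed to 3.98 TPM in A and 0.290 TPM in B at KO ZT20. At KO ZT12 they summed to 10.5 TPM in A and 0.231 TPM in B, where the members were lower in A by median (-0.32). What set the libraries of a group apart was not tested.

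**Figure D4:**
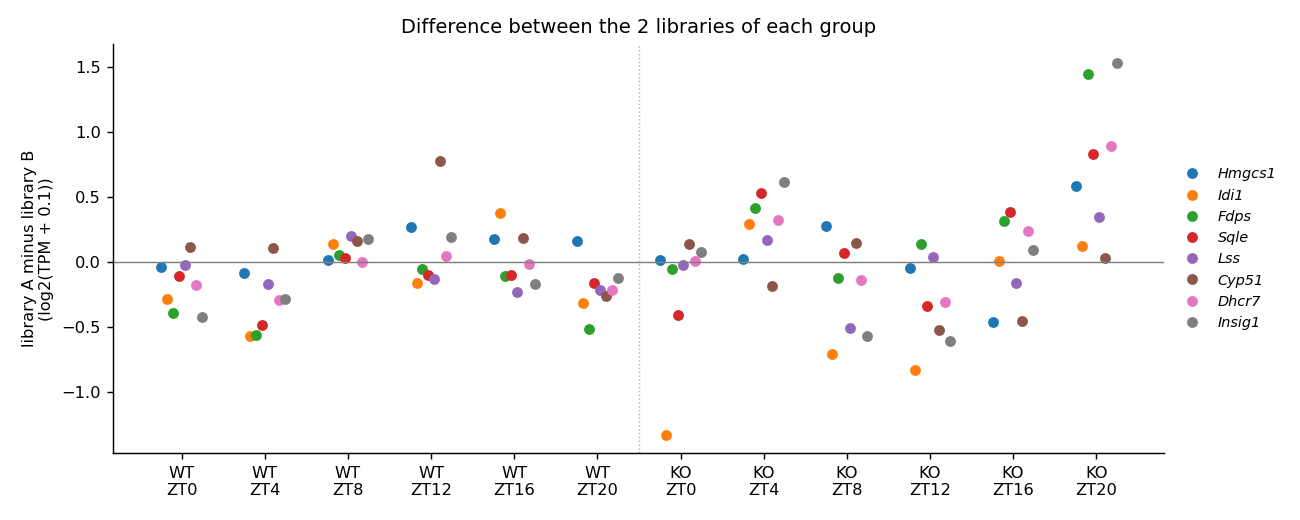
Difference between library A and library B in log2(TPM + 0.1) (vertical axis) for each of the 8 genes in each of the 12 groups of genotype and time. At KO ZT20 all 8 points lie above 0, from 0.03 (Cyp51) to 1.54 (Insig1), and at KO ZT0 Idi1 lies alone at -1.33.

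Of 11 other enzymes of the pathway, 6 passed the rhythm test in WT and 3 in KO, against 13.7% and 3.64% of all genes tested. Msmo1, a demethylation enzyme, had a WT rhythm (peak-to-trough 1.68 with SE 0.30, peak at ZT22.3 with SE 0.677 h, adjusted p = 0.00271), as did Fdft1, squalene synthase (peak-to-trough 0.92 with SE 0.23, peak at ZT21.9 with SE 0.938 h, adjusted p = 0.0244), and neither passed in KO (adjusted p = 0.0708 and 0.210). In level, 4 of 11 were lower and 3 higher in KO, against 10.0% and 50.9% of all genes tested. Mvd, the mevalonate diphosphate decarboxylase, differed by -0.40 ± 0.08 (SE; 95% interval -0.56 to -0.23; adjusted p = 0.000273), and Acat2, the thiolase at the head of the pathway, by -0.30 ± 0.06 (SE; 95% interval -0.42 to -0.18; adjusted p = 0.000151). Pmvk (0.46) and Ebp (0.27) were higher, and under median-of-ratios scaling these became 0.32 and 0.12, both still called, while the third, Tm7sf2 (0.24), lost its call (0.09, adjusted p = 0.227).

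Among 7 genes that encode the SREBPs or act on them, 3 passed the rhythm test in WT and 1 in KO. The shares of all genes tested were 13.7% and 3.64%. In level limma called 3 higher (Srebf2, Scap and Mbtps1) and 0 lower in KO, where 50.9% of all genes were higher, and under median-of-ratios scaling 0 were higher and 2 lower (Srebf1, -0.38, adjusted p = 0.0212, and Rnf139, -0.08, adjusted p = 0.0483). Srebf2, which encodes SREBP2, averaged 15.1 TPM in WT and 17.1 TPM in KO, a log2 difference of 0.19 ± 0.07 (SE; 95% interval 0.03 to 0.34; adjusted p = 0.0324), and a call lost under median-of-ratios scaling (0.04, adjusted p = 0.663). Its WT rhythm passed (peak-to-trough 0.56 with SE 0.14, peak at ZT23.9 with SE 0.958 h, adjusted p = 0.0272) and its KO rhythm did not (peak-to-trough 0.29 with SE 0.14, peak at ZT23.9 with SE 1.83 h, adjusted p = 0.393), and the difference in rhythm gave an adjusted p of 0.736. Scap, the escort protein, was 0.19 higher on the log2 scale (adjusted p = 0.000122; 0.04 and adjusted p = 0.351 under that scaling), and Insig2 did not pass (0.07, adjusted p = 0.338). Srebf1, which encodes the lipogenic SREBP1, was rhythmic in both genotypes, with swings of 1.67 ± 0.23 in WT and 1.41 ± 0.23 in KO (adjusted p = 0.000269 and 0.00637). Its level difference was -0.23 ± 0.13 (SE; 95% interval -0.49 to 0.04; adjusted p = 0.127).

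**Figure D5:**
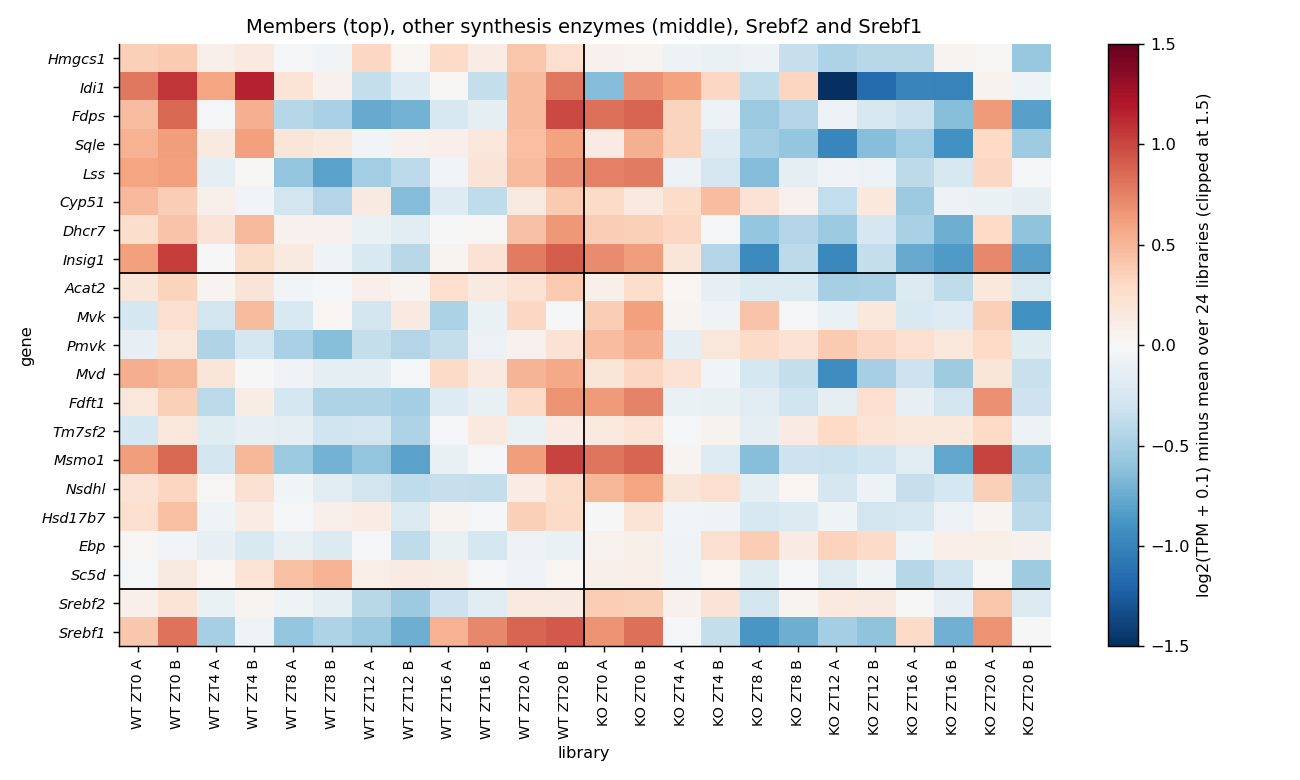
Log2(TPM + 0.1) minus each gene's mean over the 24 libraries (color, clipped at 1.5) for the 8 members, 11 other synthesis enzymes, Srebf2 and Srebf1 (rows) in every library (columns, WT left and KO right). Members are red at ZT0 and ZT20 in WT and mostly blue from ZT8 to ZT16 in KO. For most members library B of KO ZT20 is bluer than library A, while Cyp51 is alike in both (58.9 TPM in A and 57.6 TPM in B).

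Of 5 genes of cholesterol uptake and transport, 0 passed the rhythm test in WT by limma (1 had an unadjusted p under 0.05) and 1 in KO. Of all genes tested 13.7% and 3.64% passed. In level 3 were higher and 0 lower in KO, against 50.9% of all genes higher, and under median-of-ratios scaling 1 was higher (Tmem97) and 1 lower (Npc1, -0.12, adjusted p = 0.0305). The KO rhythm was that of Stard4, a sterol carrier, with a swing of 0.56 ± 0.13 (adjusted p = 0.0362), against 0.39 ± 0.13 in WT (adjusted p = 0.0910). Tmem97, a membrane protein that binds the cholesterol transporter NPC1, was higher in KO by a log2 value of 0.34 ± 0.07 (SE; 95% interval 0.19 to 0.49; adjusted p = 0.000442), and by 0.19 under median-of-ratios scaling (adjusted p = 0.0290). The calls of the other two, Npc2 and Scarb1, were lost under that scaling (adjusted p = 0.671 and 0.297). Among 7 genes of the sterol sensor LXR and of cholesterol efflux, which oppose accumulation, 4 passed the rhythm test in WT and 1 in KO. The KO call was that of Abcg1 (adjusted p = 0.0440). It held in 8 of the 24 fits leaving out 1 library, and not without the library labelled KO ZT4 A. In level 2 of these 7 were lower and 1 was higher in KO, against 10.0% and 50.9% of all genes tested. The lower ones were Nr1h3 (-0.25, adjusted p = 0.0128) and Lpcat3 (-0.19, adjusted p = 0.0317), in the same direction as the 5 lower members. Leaving out 1 library at a time ended the level call of Lpcat3 for 7 of 24 libraries (adjusted p up to 0.06255). That of Nr1h3 held in all 24 fits. The higher one was Apoe, an apolipoprotein, at 163 TPM in WT and 308 TPM in KO, a log2 difference of 0.87 ± 0.13 (SE; 95% interval 0.59 to 1.14; adjusted p = 2.28e-05), opposite in direction to the 5 members that were lower.

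Outside these lists, genes whose log2 values followed the mean of the 8 members closely over the 24 libraries included Fads1 (r = 0.92), Acmsd (0.84), Fhl3 (0.84), Cyb5b (0.83), Nme1 (0.82), Hsd3b2 (0.82), Memo1 (0.82) and Elovl1 (0.81). These are Pearson correlations that share library, time and genotype with the members. Fads1, a fatty acid desaturase, swung by 0.83 in WT and 0.85 in KO, and its log2 difference, KO minus WT, was -0.36. It was picked for its likeness to the members over the same libraries, so these values are descriptions only.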

How the data were processed

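Transcript TPM values of the 24 kidney RNA libraries were used as deposited; the authors made them with kallisto 0.42.4 and named mm10 and GRCm38 as builds, per the submitters' processing notes. The index and annotation release are not given in the sources used here. Each deposited column sums to between 999999 and 1000001, so depth cannot be recovered and no counting interval was computed. Transcripts were summed to genes by Ensembl identifier without version through GENCODE M21, which matched 86119 of 88198, and the other 2079, with 1.35% to 2.24% of TPM per library, were left out. Those averaging 1 TPM or more over all libraries were analysed as log2(TPM + 0.1) with limma 3.58.1 (lmFit, eBayes with trend and robust) in R 4.3.3.

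Rhythm was the moderated F test of a 24-hour cosine and sine per genotype, with 1 residual spread per gene over both genotypes, and the difference in rhythm that of the genotype difference in both terms. Level was the KO minus WT coefficient with time as a 6-level factor. P-values were adjusted by the Benjamini-Hochberg method over 12874 genes. Peak times, peak-to-trough values and their errors came from the fitted terms by the delta method. The code was tested on simulated data.

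The members, the gene lists and the tests were chosen with earlier results of these data known. The rule for naming took all 8 members, listed genes with the smallest p-values or widest WT rhythms (at most 5 and 3 per list), Srebf2, Srebf1, Scap and Insig2, and the 10 unlisted genes most correlated with the members. Of the lists 4 genes, and of those 10 genes 2, are not reported here and enter no count of a list. Promoters came from RefSeq (GRCm38.p6). Alternatives covered the pseudocount, filter, scaling, eBayes options, replicate letter, transcript types, time model and leaving out libraries, 2 of them chosen after seeing the data. The 4C-seq tables of the series were not used here.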

Additional observations from a re-analysis of the deposited data

Results flagged for a closer look

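The daily rhythm of Lpcat3 differed between genotypes by limma's test of the difference itself. In that test limma called none of the 8 members, against 0.629% of all genes tested (2, Cyp51 and Sqle, had an unadjusted p under 0.05). Lpcat3, a lysophospholipid acyltransferase controlled by the sterol sensor LXR, passed that joint test of amplitude and peak time with an adjusted p of 0.0437. Its fitted peak-to-trough (log2) was 0.52 in WT and 0.20 in KO, a KO minus WT difference of -0.32 (95% interval -0.60 to -0.04), and its fitted peak was 9.14 h later in KO (95% interval 5.08 to 13.2 h), where the rhythm itself did not pass (adjusted p = 0.391). Under median-of-ratios scaling the call was lost (adjusted p = 0.0965). Leaving out 1 library at a time ended the call for 18 of 24 libraries (adjusted p 0.0131 to 0.103), with the sign of the amplitude difference kept in each. All groups held 2 libraries, too few to look for a single library far from its group.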

How the results depend on the processing

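The count of 5 members lower in KO held in all 36 alternatives, with the same 5 genes. The rhythm counts depended on the model. With no filter on low values 3 members passed in KO, and 295 of all genes in KO and 43 for the difference. With time as a 6-level factor 1 member passed in WT and 1 in KO, and 576, 28 and 23 of all genes in WT, in KO and for the difference. With each genotype fitted alone 8 members passed in WT and 0 in KO, and 2843 and 12 of all genes. Without both KO libraries of ZT20, an alternative chosen after seeing the data as was leaving out KO ZT4 A with KO ZT20 B, 292 of all genes passed in KO. Median-of-ratios scaling gave 2859 genes lower and 2840 higher in KO. It turned the level difference of 13 of 38 members and listed genes from positive to negative, and 4 of these were called under either scaling, at -0.039 for Mbtps1, -0.079 for Rnf139, -0.117 for Npc1 and -0.122 for Nr1h2. Leaving out 1 library at a time gave 3 to 7 members in WT, 2 to 6 in KO and 0 to 1 for the difference, and over all genes 1193 to 2140, 272 to 620 and 37 to 112. The causes were not tested. With the replicate letter as a replicate block the counts of members were 5 in WT, 5 in KO, 0 for the difference and 5 for level, each as without the block. Deviations from the group means correlated between same-lettered libraries with a median r of 0.02 over 66 pairs of groups (-0.32 to 0.34, 21 above 0.1). A median over all pairs of groups cannot exclude pairing shared by only some groups. The letters were treated as names and not as pairs.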
